A study of Homo sapiens with 4 samples.

Results

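The genes described here are 44 genes that copy DNA or drive the step from G1 into S phase, given as a list by name and grouped by role. All 44 were measured among 17687 named genes, each by 1 probe set. The RNA came from the established human line SK-N-AS, grown from a neuroblastoma, and was read on whole-transcript arrays made by Affymetrix. Treated cells received 30 µM BG-P400-TAT, and untreated cells received phosphate-buffered saline, both over 48 h and with 2 arrays each. Growth medium, serum and line were the same in both groups, and the design text calls the arrays of a group biological replicates. No label says how the cultures were kept apart, so the p-values reflect array-to-array spread that may be technical. By its title the series concerns a compound aimed at norepinephrine transport and the integrin αvβ3, and its design text asks about anticancer effects on expression.

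Before a human cell copies its DNA, the origin recognition complex, CDC6 and CDT1 load rings of MCM2 to MCM7 onto chromatin in G1, a step called licensing, which geminin blocks later in the cycle. At the G1/S border cyclin E with CDK2 and the kinase CDC7 with DBF4 begin to turn loaded rings into active helicases, which CDC45 and the GINS complex join. DNA polymerases α, δ and ε then copy the strands, with PCNA as the sliding clamp, replication factor C as its loader, and ribonucleotide reductase and thymidylate synthase supplying nucleotides. Many of these genes are transcribed by E2F factors when the retinoblastoma protein is inactivated, and therefore their transcripts mark cycling cells. Proliferating neuroblastoma lines express most of them.

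Because E2F binding is the known link between these genes, the promoters were read first. RefSeq promoter windows on GRCh38.p14, which run from 250 bases before to 50 bases after a gene start, were available for 40 of the 44 genes, in 52 windows. An E2F-type site was searched on both strands as TTTCCCGC, TTTCGCGC, TTTGCCGC or TTTGGCGC. Matches on opposite strands may overlap each other, as they do in MCM2 and MCM6. At least 1 match lay in 24 of the 52 windows (46.2%), against 1164 of all 35116 windows (3.31%). By gene, 23 of 40 had a match (57.5%), against 1090 of all 27305 genes (3.99%). Of the 32 matches, 28 began before the gene start and 21 began within the last 100 bases before it. The CCAAT box, searched as CCAAT on both strands, was found in 28 of the 52 windows (53.8%) and in 34.6% of all windows. A match is a run of letters and not a measured binding site. The 60 bases around the match that lies farthest before the start are shown in lower case for 9 genes, with the matches in capitals. The first 6 genes had both treated arrays above both untreated arrays, and in the last 3 the arrays of the groups overlapped, so that the same kind of site can be seen beside either outcome. Among all 23 genes with a match, 8 had both treated arrays above both untreated arrays, as did 16.8% of all named genes.
MCM3: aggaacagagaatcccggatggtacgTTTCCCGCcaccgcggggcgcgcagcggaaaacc
MCM6: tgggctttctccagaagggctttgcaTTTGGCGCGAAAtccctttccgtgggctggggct
MCM7: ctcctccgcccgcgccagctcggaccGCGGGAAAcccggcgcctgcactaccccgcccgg
POLA2: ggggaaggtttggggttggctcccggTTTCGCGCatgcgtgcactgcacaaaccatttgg
POLE: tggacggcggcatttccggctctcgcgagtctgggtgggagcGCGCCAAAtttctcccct
E2F1: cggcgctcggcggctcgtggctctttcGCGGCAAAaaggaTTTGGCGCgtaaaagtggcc
PCNA: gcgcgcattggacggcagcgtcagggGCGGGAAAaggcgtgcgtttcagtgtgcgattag
RFC3: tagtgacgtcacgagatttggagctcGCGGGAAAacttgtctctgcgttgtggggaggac
TYMS: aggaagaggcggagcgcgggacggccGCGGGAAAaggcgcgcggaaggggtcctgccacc

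These stretches read 5′ to 3′ along the gene. MCM6 lies on the minus strand at chr2:135876562-135876621, MCM3 on the minus strand at chr6:52284883-52284942, MCM7 on the minus strand at chr7:100101551-100101610, and E2F1 on the minus strand at chr20:33686386-33686445. POLE and PCNA are on the minus strand as well, at chr12:132687343-132687402 and chr20:5126648-5126707. POLA2, RFC3 and TYMS are on the plus strand, at chr11:65261883-65261942, chr13:33818068-33818127 and chr18:657588-657647. In MCM6 a match on each strand shares 4 bases, which gives a run of 12 capitals, and a second such pair lies nearer the start of the gene, with its first base at position -90 from it. In E2F1, the gene of the factor itself, a pair of matches on opposite strands has its first bases at positions -33 and -20 from the start. For MCM3 and MCM7 the match shown begins at positions -174 and -187, and a second match begins at -4 and -9, in that order.

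**Figure D1:**
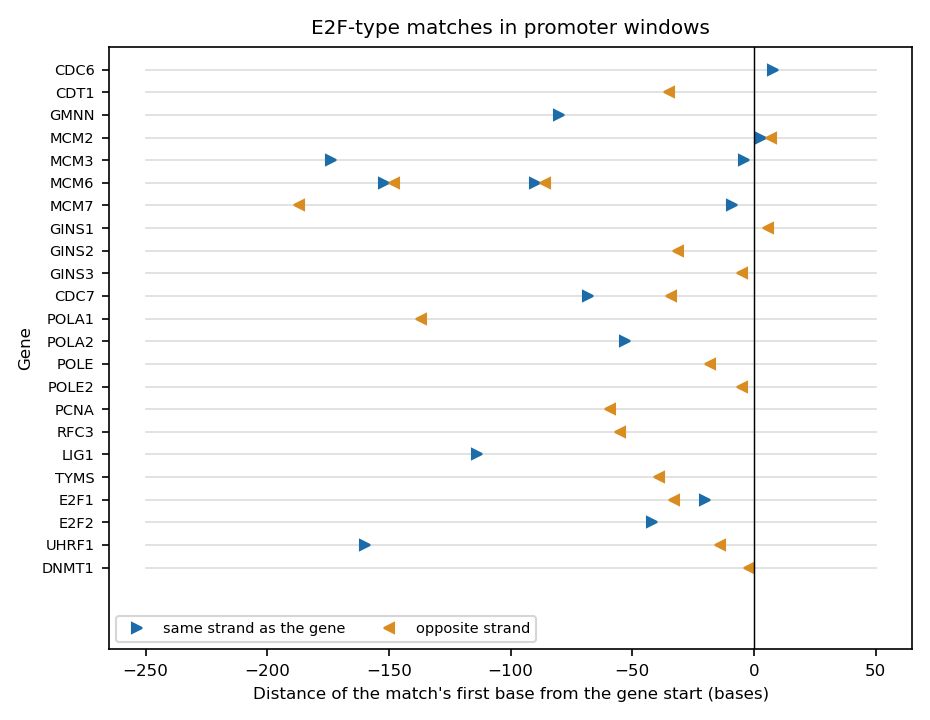
Positions of the E2F-type matches in the promoter windows of the 23 genes that hold one. The x axis is the distance of the first base of a match from the gene start in bases, each row is a gene, and the triangles point along the strand of the match. Most of the 32 matches lie in the last 100 bases before the start.

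On the arrays 40 of the 44 genes had a mean log2 expression above 6.96, a limit set at percentile 95 of the probe sets for negative controls. CDT1, POLD1, LIG1 and E2F2 stayed below each array's own percentile on all 4 arrays, at 3.91 to 6.81 on the treated arrays and 4.25 to 6.69 on the untreated arrays. Their array differences are therefore shown and not read as changes in the transcript. MCM10 was above that percentile on 1 array and E2F1 on 2 arrays. The other 38 genes were above it on every array. Signal also depends on how well a probe set binds its target, so levels were not ranked between genes. The line itself was checked with 13 measured neuroblastoma markers, of which 11 were above the negative controls, among them HAND2, GATA3, ISL1 and CHGA. Mean expression of DBH and TH, which make noradrenaline, was not above them. Of 11 markers of other cell types, PTPRC, CD68 and HBA1 were above the limit. PTPRC, a leukocyte phosphatase, had 12.71 and 12.57 in treated cells, against 12.75 and 12.80 in untreated cells, and whether this probe set measures that transcript was not checked. The T-cell gene CD3E was below the limit at 5.33 and 5.45 in treated cells, against 5.76 and 5.85 in untreated cells.

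No gene of the list passed the comparison of treated with untreated cells. In limma, fitted across all 21448 probe sets with Benjamini-Hochberg adjustment, 0 probe sets (0%) had an adjusted p below 0.05, and the smallest adjusted p among the 44 genes was 0.948. At an unadjusted p below 0.05 there were 2 of the 44, POLE and POLD1, both higher in treated cells, where 5.08% of all probe sets met that limit. The 95% intervals of 42 of the 44 differences lay within 2-fold in either direction, and the 2 that did not, POLD1 and LIG1, were below the negative controls. Of the 44 genes 30 were higher in treated cells on average and 14 lower, with a median difference of 0.076 on the log2 scale, where 49.8% of all named genes were higher. Both treated arrays lay above both untreated arrays in 14 of the 44 (16.8% of all named genes) and below both in 1, MCM10 (16.4%), whose treated values were at background. RNA was taken from whole cultures, in which the share of cells in S phase and the RNA per cell cannot be told apart.

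Brighter probe sets as a whole leaned toward the treated arrays, which sets the level against which the list is read. Among the 8722 named genes above the negative controls 58.8% were higher in treated cells, with a median difference of 0.040. The 40 genes of the list above that limit had 27 higher and 13 lower, with a median of 0.076. Over the 38 genes above it on every array the differences ran from -0.22 for ORC6 to 0.49 for POLE. The median of the 40 was 0.033 after quantile normalization and 0.031 after cyclic loess, where that of the 8722 was 0.0014 and 0.0036 in the same order. Both treated arrays exceeded both untreated arrays in 12 of the 40, against 21.2% of the 8722, and both were lower in 1 of the 40, against 11.4%. The difference exceeded both gaps between arrays of a group in 8 of the 40, against 20.6%. The mean log2 expression of the 40 genes was 10.63 and 10.62 on the treated arrays, against 10.58 and 10.51 on the untreated arrays. Over all 8722 genes these means were 10.23 and 10.20 on the treated arrays, against 10.20 and 10.14 on the untreated arrays. The lowest value of both sets was that of untreated replicate 2.

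Over the whole array untreated replicate 2 was the farthest from the others. Its median absolute log2 distance to the other arrays was 0.237 to 0.244 over all probe sets, whereas the other pairs differed by 0.193 to 0.208. Within the 44 genes this array did not stand apart, with distances of 0.157 to treated replicate 2, 0.197 to treated replicate 1 and 0.215 to untreated replicate 1, where the other pairs differed by 0.164 to 0.207. The negative-control percentile was 7.19 and 7.25 on the treated arrays and 7.31 on untreated replicate 1, against 7.64 on this array. Without it, the median of the 40 genes was 0.061 and that of the 8722 was 0.0064. Without untreated replicate 1 these medians were 0.095 and 0.066. Within the 44 genes the median gap between the treated arrays was 0.16 and that between the untreated arrays 0.22, while the median absolute difference between group means was 0.11. The part of this array in the results was not tested beyond these values. With an array left out fewer values have to stay apart, and the groups then did not overlap, with treated higher, in 24 of the 40 genes without untreated replicate 1 (47.4% of the 8722), 19 without untreated replicate 2 (35.7%), 18 without treated replicate 1 (36.2%) and 21 without treated replicate 2 (38.2%). Treated was lower without overlap in 4, 10, 7 and 3 of the 40 in the same order of arrays left out (26%, 32.1%, 28% and 21.4% of the 8722).

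**Figure D2:**
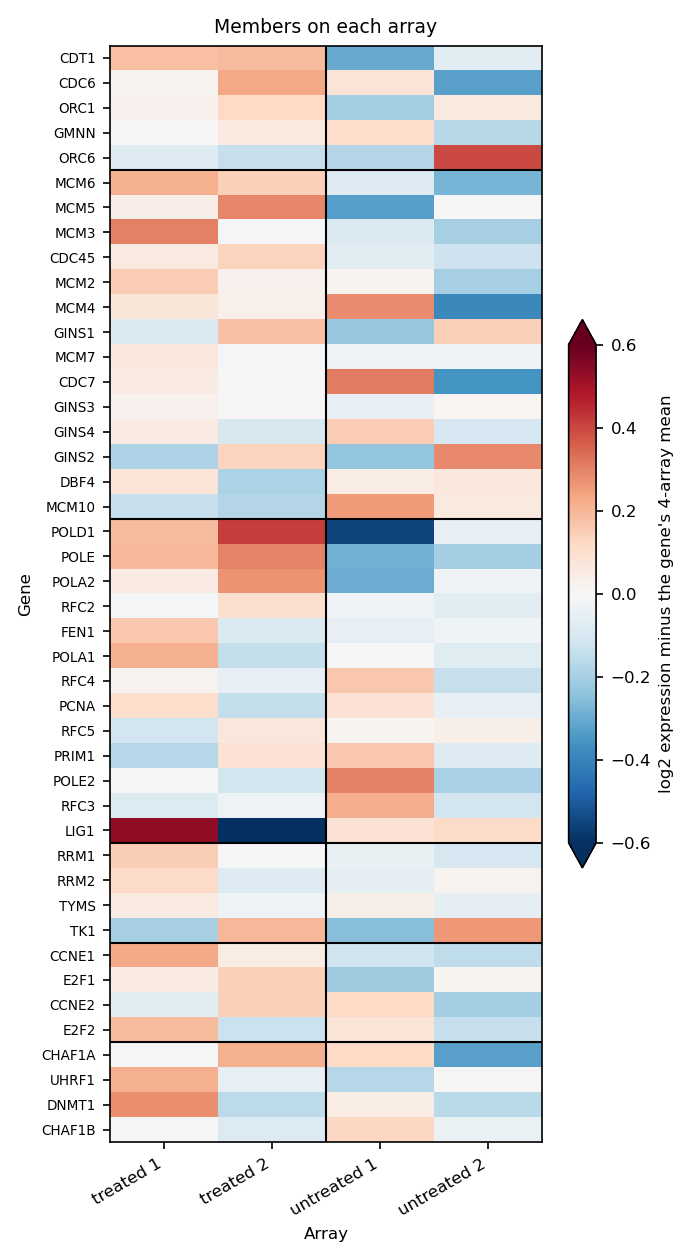
Log2 expression of the 44 genes on each of the 4 arrays, treated arrays left and untreated arrays right, as the difference from each gene's mean over the 4 arrays (red above, blue below; colours saturate at 0.6). Rows are grouped by role and ordered by the difference between groups, and no role is uniformly red on one side and blue on the other.

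The licensing genes above the negative controls all overlapped between groups. ORC1, the largest subunit of the origin recognition complex, had 10.13 and 10.23 on the treated arrays and 9.90 and 10.17 on the untreated arrays, and the groups overlapped. ORC6, its smallest subunit, had 9.26 and 9.20 on the treated arrays and 9.17 and 9.74 on the untreated arrays. Here untreated replicate 2 was the high array, and the difference of -0.22 (95% interval -0.78 to 0.34) was 0.069 without it. CDC6, the ATPase that works with the origin recognition complex to load the helicase, had 10.85 and 11.06 on the treated arrays and 10.90 and 10.50 on the untreated arrays. Untreated replicate 2 was the low array for CDC6, and its difference of 0.25 (interval -0.27 to 0.76) ranged over 0.048 to 0.45 with an array left out. GMNN, which encodes geminin, the inhibitor of CDT1, had 10.97 and 11.03 on the treated arrays and 11.08 and 10.81 on the untreated arrays, a difference of 0.061 (interval -0.40 to 0.52). CDT1 itself, the loading factor that geminin binds, read 4.73 and 4.74 on the treated arrays and 4.25 and 4.48 on the untreated arrays, all below the negative controls, so that its balance with geminin cannot be read from these arrays. Over the 4 licensing genes above the limit the median difference was 0.10, with 3 higher and 1 lower and no gene whose groups stayed apart. That median was 0.058 without untreated replicate 2, 0.065 without treated replicate 2. The normalizations gave 0.066 after quantile normalization and 0.061 after cyclic loess.

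Among the helicase genes the 6 ring subunits MCM2 to MCM7 were all higher on average in treated cells, and in 5 of the 6 both treated arrays lay above both untreated arrays (21.2% of the 8722 genes above the negative controls did so). None of the 6 passed the test. MCM6 had the largest difference of the ring, with 9.15 and 9.08 on the treated arrays and 8.86 and 8.66 on the untreated arrays. Its difference was 0.36, which is 1.28-fold (interval -0.090 to 0.80 on the log2 scale). MCM5 had 9.97 and 10.23 on the treated arrays and 9.61 and 9.93 on the untreated arrays, a difference of 0.33 (interval -0.17 to 0.83); the lower treated array lay just above the higher untreated array. MCM3 had 10.92 and 10.61 on the treated arrays and 10.53 and 10.42 on the untreated arrays, a difference of 0.29 (interval -0.19 to 0.77). For MCM3 the replicates of treated cells were farther apart than the nearest arrays of the 2 groups. With an array left out the difference ranged over 0.13 to 0.45 for MCM3, lowest without treated replicate 1, and over 0.17 to 0.49 for MCM5, lowest without untreated replicate 1.

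Smaller differences were found in the remaining ring subunits. MCM2 had 9.32 and 9.19 on the treated arrays and 9.19 and 8.97 on the untreated arrays, and the lower treated array and the higher untreated array came out equal to 2 decimals. Its difference was 0.18 (interval -0.28 to 0.63). MCM7 had 13.37 and 13.30 on the treated arrays and 13.28 and 13.29 on the untreated arrays, with a difference of 0.053 (interval -0.38 to 0.48), so that the groups were apart by very little. MCM4 had 12.01 and 11.97 on the treated arrays and 12.22 and 11.55 on the untreated arrays, and the treated arrays lay between the untreated ones. Its difference of 0.11 was -0.23 without untreated replicate 2 and 0.44 without untreated replicate 1. The median over MCM2 to MCM7 was 0.23, and their mean log2 expression was 10.79 and 10.73 on the treated arrays, against 10.61 and 10.47 on the untreated arrays. That median was 0.32 without untreated replicate 1, 0.15 without untreated replicate 2, 0.12 without treated replicate 1 and 0.22 without treated replicate 2. After quantile normalization it was 0.19 and after cyclic loess 0.19. The 6 values come from the same 4 arrays and are not separate replicates of the treatment.

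**Figure D3:**
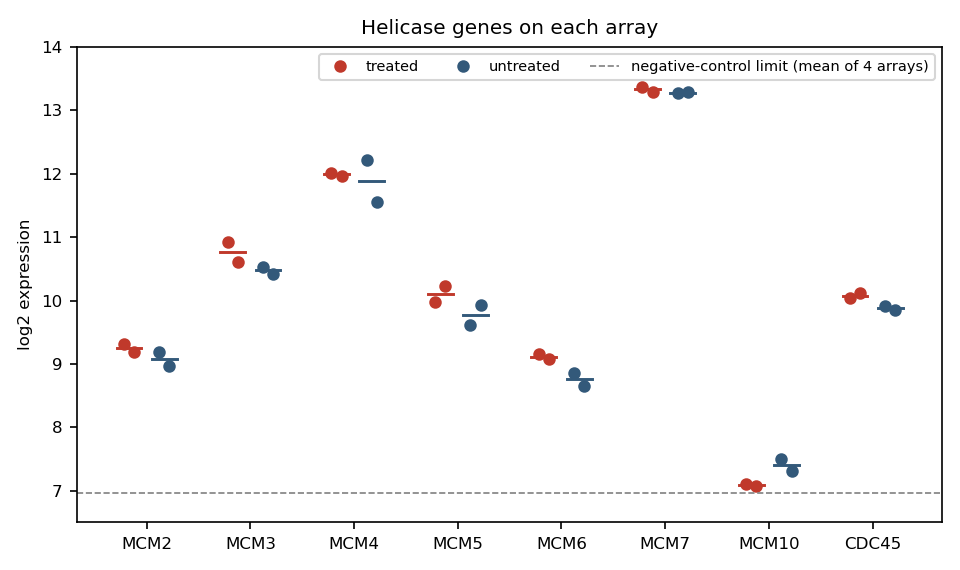
Log2 expression of MCM2 to MCM7, MCM10 and CDC45 on the 2 treated arrays (red, left of each pair) and the 2 untreated arrays (blue, right), with short lines at the group means and the negative-control limit of 6.96 dashed. MCM4 is the ring gene whose groups overlap, and MCM10 is the one gene shown that was lower on both treated arrays.

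The factors that activate the ring differed in direction among themselves. CDC45, a helicase subunit, had 10.04 and 10.11 on the treated arrays and 9.92 and 9.85 on the untreated arrays, with a difference of 0.19 (interval -0.24 to 0.62), and its groups did not overlap. MCM10, which binds the activated helicase, went the other way, with 7.11 and 7.07 on the treated arrays and 7.51 and 7.31 on the untreated arrays. It was the 1 gene of the 44 lower on both treated arrays. Both treated values and 1 of the untreated values were not above their own array's negative-control percentile, so no fold is given for it (limma adjusted p = 0.948). The GINS genes, whose products join CDC45 on the ring, had differences of 0.088 for GINS1, -0.052 for GINS2, 0.034 for GINS3 and -0.049 for GINS4, and all 4 overlapped. GINS3 was the steadiest of them, with 10.41 and 10.39 on the treated arrays and 10.33 and 10.40 on the untreated arrays. CDC7, the kinase that phosphorylates the ring, had 10.90 and 10.85 on the treated arrays and 11.16 and 10.49 on the untreated arrays, with the treated arrays between the untreated ones. DBF4, its activating subunit, had 11.96 and 11.70 on the treated arrays and 11.93 and 11.95 on the untreated arrays, a difference of -0.11 (interval -0.57 to 0.35). Over the 14 helicase and activation genes 10 were higher and 4 lower, with a median of 0.070. That median was 0.12 without untreated replicate 1, and 0.041 after quantile normalization and 0.037 after cyclic loess.

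Among the polymerase genes, POLE and POLA2 were apart between groups and the other genes above the negative controls overlapped. That is 2 of 5 genes, where 21.2% of the 8722 genes above the negative controls had both treated arrays higher. POLE, the catalytic subunit of polymerase ε, which copies the leading strand, had 8.49 and 8.59 on the treated arrays and 8.0 and 8.09 on the untreated arrays. This was the largest difference among the 40 genes above the negative controls, 0.49 or 1.41-fold (interval 0.058 to 0.93 on the log2 scale, unadjusted p = 0.0316, limma adjusted p = 0.948), and it exceeded the gap between the arrays of either group. With an array left out it ranged over 0.44 to 0.54. POLE2, the second subunit of the same polymerase, had 8.98 and 8.87 on the treated arrays and 9.28 and 8.78 on the untreated arrays, a difference of -0.11 (interval -0.65 to 0.43) with overlapping groups. POLA2, the accessory subunit of polymerase α, had 8.44 and 8.66 on the treated arrays and 8.10 and 8.37 on the untreated arrays, a difference of 0.32 (interval -0.16 to 0.80) without overlap. With an array left out it ranged over 0.18 to 0.46, lowest without untreated replicate 1. POLA1, the catalytic subunit of that enzyme, had 9.39 and 9.04 on the treated arrays and 9.18 and 9.10 on the untreated arrays, and PRIM1, the primase that makes its RNA primers, 10.79 and 11.04 on the treated arrays and 11.12 and 10.88 on the untreated arrays. The groups of POLA1 and PRIM1 overlapped, at differences of 0.072 and -0.083. POLD1, the catalytic subunit of polymerase δ, read 5.68 and 5.91 on the treated arrays and 4.94 and 5.44 on the untreated arrays. All 4 of these values lay below the negative controls, and no fold is given for it.

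For the clamp and its loader, the groups overlapped in all genes but RFC2. PCNA had 13.26 and 13.01 on the treated arrays and 13.23 and 13.10 on the untreated arrays, a difference of -0.038 (interval -0.50 to 0.42). The loader subunits RFC2 to RFC5 had differences of 0.089, -0.11, -0.026 and -0.049 in order of their numbers. RFC2 was the 1 of the 4 without overlap, at 11.18 and 11.28 on the treated arrays and 11.16 and 11.12 on the untreated arrays. Of the 8722 genes above the negative controls, 21.2% had both treated arrays higher. The median of RFC2 to RFC5 was -0.038. With an array left out it ranged from -0.11 to 0.082, the positive value being that without untreated replicate 1. It was -0.075 after quantile normalization and -0.071 after cyclic loess. FEN1, the nuclease that trims Okazaki fragments, had 12.71 and 12.47 on the treated arrays and 12.50 and 12.52 on the untreated arrays, a difference of 0.079 (interval -0.38 to 0.53). LIG1, the ligase that joins them, was below the negative controls on every array, at 5.18 and 3.91 on the treated arrays and 4.74 and 4.76 on the untreated arrays, and its treated arrays differed most from each other among the 44 genes. Over the 11 genes of this role above the limit 5 were higher and 6 lower, with a median of -0.026. In 3 of the 11 both treated arrays lay above both untreated arrays, against 21.2% of the 8722. The median of this role was 0.11 without untreated replicate 1, when 10 of the 11 were higher, and 0.038 without treated replicate 2. It was -0.040 without untreated replicate 2, -0.045 without treated replicate 1. The normalizations gave -0.057 after quantile normalization and -0.058 after cyclic loess.

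In deoxynucleotide supply, both treated arrays were higher in 1 of the 4 genes, RRM1. Of the 8722 genes above the negative controls, 21.2% were so. RRM1, the large subunit of ribonucleotide reductase, had 15.01 and 14.86 on the treated arrays and 14.82 and 14.76 on the untreated arrays, a difference of 0.15 (interval -0.29 to 0.58) without overlap. RRM2, the small subunit that cells make in S phase, had 12.96 and 12.76 on the treated arrays and 12.79 and 12.86 on the untreated arrays, a difference of 0.036 (interval -0.41 to 0.48). TYMS, thymidylate synthase, had 13.04 and 12.95 on the treated arrays and 13.02 and 12.92 on the untreated arrays, a difference of 0.024 (interval -0.41 to 0.46). These intervals reach no farther than 0.58 on the log2 scale in either direction. TK1, the thymidine kinase of the salvage route, had 11.74 and 12.14 on the treated arrays and 11.69 and 12.20 on the untreated arrays. The treated arrays lay within the range of the untreated ones, and the difference of -0.0018 (interval -0.60 to 0.59) was 0.26 without untreated replicate 2 and -0.26 without untreated replicate 1. The median of the 4 was 0.030, and it was -0.0043 after quantile normalization and -0.0017 after cyclic loess. With an array left out it ranged from 0.028 to 0.099, the larger values being those without untreated replicate 2 or treated replicate 2.

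Cyclin E and E2F genes act upstream of the others. CCNE1, which encodes cyclin E1, the partner of CDK2 at the G1/S border, had 9.55 and 9.36 on the treated arrays and 9.20 and 9.16 on the untreated arrays. Both treated arrays were higher, and the difference was 0.27 or 1.21-fold (interval -0.17 to 0.72 on the log2 scale). CCNE2, cyclin E2, had 9.53 and 9.74 on the treated arrays and 9.72 and 9.39 on the untreated arrays, with overlapping groups and a difference of 0.083 (interval -0.41 to 0.57). E2F1, an activating E2F factor, had 7.54 and 7.63 on the treated arrays and 7.28 and 7.51 on the untreated arrays. Both untreated values of E2F1 were not above their arrays' negative-control percentile. With each raised to that percentile, the treated mean was 1.08-fold higher. The measured difference of 0.19 had an interval of -0.26 to 0.65 (limma adjusted p = 0.977), so no least rise is given. E2F2, another activating member of the family, was below the limit on all arrays, at 6.81 and 6.48 on the treated arrays and 6.69 and 6.48 on the untreated arrays.

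Chromatin and methylation must be copied with the DNA. UHRF1, which recognizes hemimethylated DNA and recruits DNMT1, had 10.92 and 10.65 on the treated arrays and 10.53 and 10.71 on the untreated arrays, a difference of 0.16 (interval -0.31 to 0.64). DNMT1, the maintenance methyltransferase, had 10.06 and 9.62 on the treated arrays and 9.82 and 9.62 on the untreated arrays, a difference of 0.12 (interval -0.40 to 0.65), and treated replicate 1 alone was the high array. CHAF1A and CHAF1B, subunits of the CAF-1 complex that places histones on new DNA, differed in sign, at 0.21 (interval -0.32 to 0.74) and -0.086 (interval -0.53 to 0.36). CHAF1A had 9.32 and 9.54 on the treated arrays and 9.45 and 9.0 on the untreated arrays, with untreated replicate 2 low. All 4 genes of this role overlapped between groups. Their median was 0.14, which came to 0.00036 when untreated replicate 2 was left out, and to -0.033 when treated replicate 1 was.

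**Figure D4:**
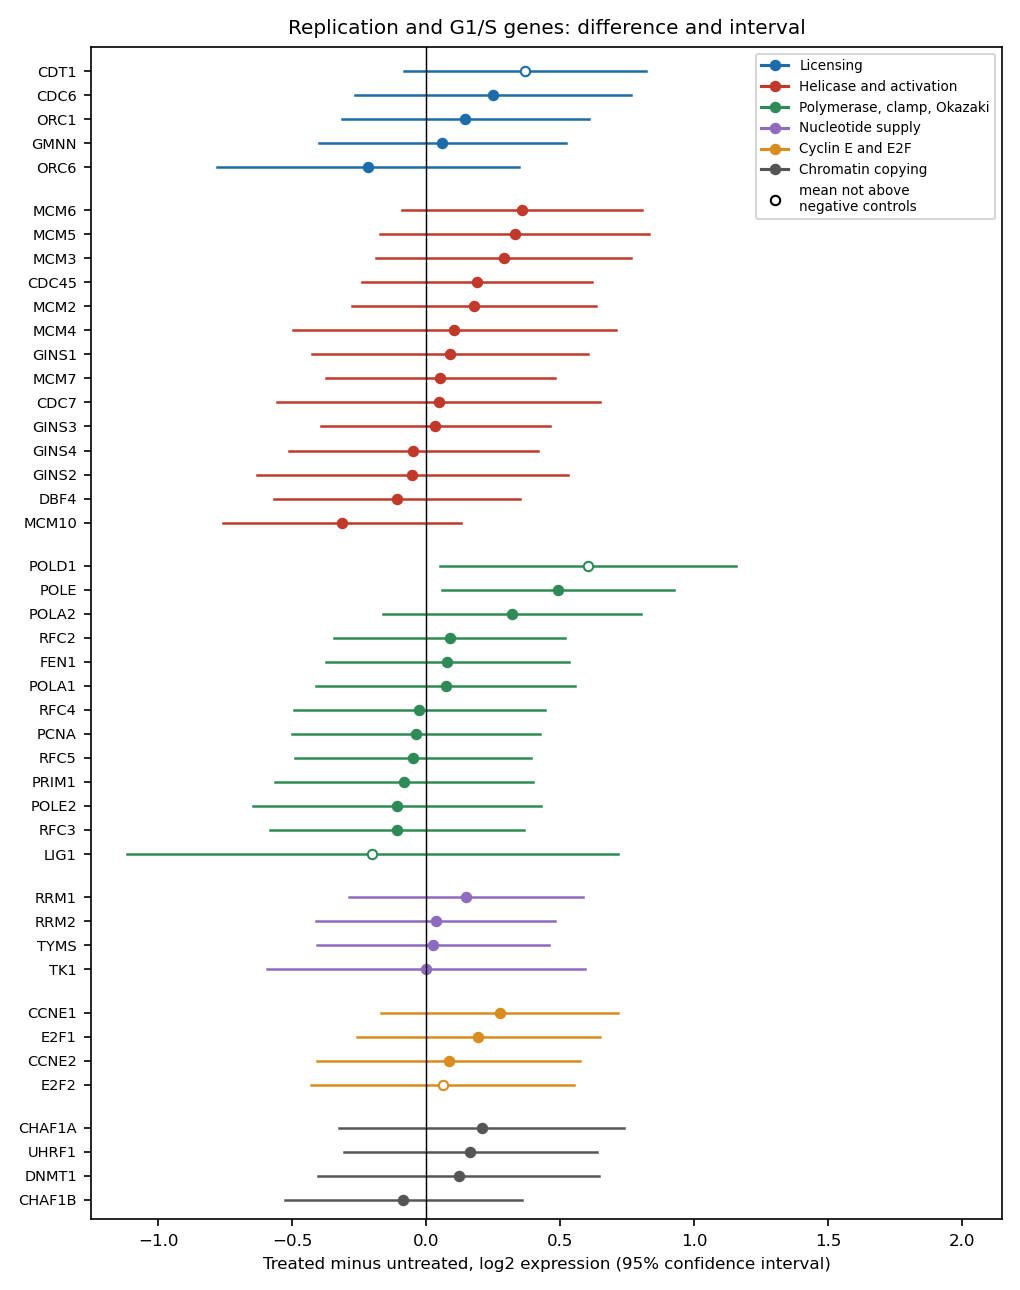
Treated minus untreated log2 expression of the 44 genes by role, with points at the difference and bars for limma's 95% confidence interval; open points are the 4 genes whose mean was not above the negative controls. The bars of POLE and POLD1 do not reach 0, and no gene passed after adjustment.

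Set side by side, the roles had medians of 0.19 for cyclin E and E2F (3 genes), 0.14 for chromatin copying (4), 0.10 for licensing (4), 0.070 for the helicase and its activation (14), 0.030 for nucleotide supply (4) and -0.026 for polymerases, clamp and Okazaki processing (11), against 0.040 for all 8722 genes. The 0.19 is the difference of E2F1, at background in untreated cells, beside 0.27 for CCNE1 and 0.083 for CCNE2. With an array left out the median of these 3 genes ranged from 0.15 to 0.26. The 25th and 75th percentiles of those 8722 differences were -0.080 and 0.16, and their 5th and 95th percentiles were -0.28 and 0.39. Of the 38 genes above the negative controls on every array, POLE lay outside that range. The 20 genes above the negative controls with an E2F-type match in their promoter had a median difference of 0.080, with 16 higher, and the 16 without a match had 0.017, with 8 higher. Groups that did not overlap, with treated higher, were found in 7 of the 20 and 4 of the 16, where all 8722 genes had 21.2% without overlap and 58.8% higher on average. The difference between genes with and without a match was not tested, and a missing match does not show that E2F factors leave a gene alone.

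**Figure D5:**
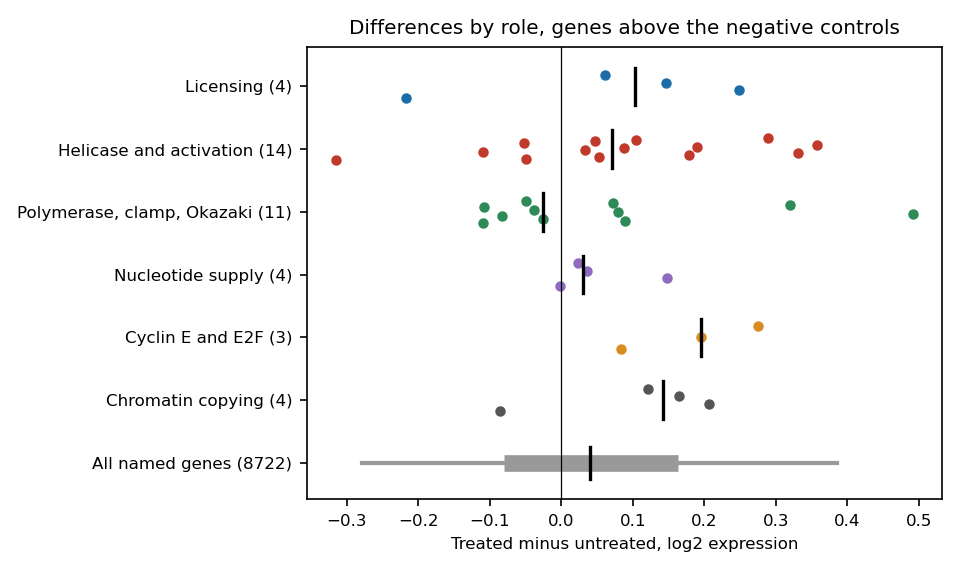
Treated minus untreated log2 expression by role for the genes above the negative controls, with the number of genes in brackets; each point is a gene and each black bar a median. The grey row gives all 8722 named genes above the limit, with the middle 50% as a thick bar and the 5th to 95th percentile as a thin line, and nearly all points lie within that line.

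Other genes of the same machinery gave no call either. Of 45 further replication genes 43 were measured and 39 were above the negative controls, of which 16 were higher after treatment and 23 lower; the median difference was -0.018. Both treated arrays were higher in 1 of the 39 and lower in 7 (21.2% and 11.4% of the 8722). The median was 0.017 without treated replicate 2, -0.049 without untreated replicate 1, -0.053 without untreated replicate 2 and -0.062 without treated replicate 1. It was -0.061 after quantile normalization and -0.063 after cyclic loess. RNASEH2B, a subunit of the nuclease that removes ribonucleotides from DNA, had 10.43 and 10.22 on the treated arrays and 10.77 and 10.77 on the untreated arrays, a difference of -0.44 (limma adjusted p = 0.948). WDHD1, which tethers polymerase α to the helicase, had 9.55 and 9.31 on the treated arrays and 9.72 and 9.63 on the untreated arrays, a difference of -0.25. MTBP, a partner of the origin-firing factor treslin, had 10.77 and 10.73 on the treated arrays and 11.20 and 10.86 on the untreated arrays, a difference of -0.28. HELLS, a chromatin remodeller, had 10.42 and 10.06 on the treated arrays and 10.36 and 10.75 on the untreated arrays, and RPA2, a subunit of the protein that coats single-stranded DNA, 10.12 and 10.22 on the treated arrays and 10.18 and 9.27 on the untreated arrays. HELLS was lower by a difference of -0.31, with overlapping groups. Untreated replicate 2 was the low array of RPA2, and its difference of 0.44 was -0.014 without that array.

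Among 26 measured regulators of E2F and the G1/S step, from a list of 27, 23 were above the negative controls, 15 higher and 8 lower, with a median of 0.057, which was -0.037 without untreated replicate 2. The median was 0.020 after quantile normalization and 0.017 after cyclic loess, and 0.12 without untreated replicate 1. Groups stayed apart in 4 of the 23 with treated higher (21.2% of the 8722) and in 4 with treated lower (11.4%). None passed the test. LIN37, a subunit of the MuvB complex, had 8.45 and 8.92 on the treated arrays and 8.18 and 7.61 on the untreated arrays, the last of which was not above its array's negative-control percentile, a difference of 0.79 (interval 0.15 to 1.42; unadjusted p = 0.0218, limma adjusted p = 0.948). LIN54, the DNA-binding subunit of that complex, had 8.36 and 8.21 on the treated arrays and 7.87 and 7.87 on the untreated arrays, a difference of 0.42 (interval -0.019 to 0.85). LIN52, a further subunit, had 9.21 and 9.76 on the treated arrays and 10.01 and 9.77 on the untreated arrays, a difference of -0.41 (interval -0.98 to 0.17). E2F4, a repressive E2F factor, had 12.02 and 12.12 on the treated arrays and 11.91 and 11.62 on the untreated arrays, a difference of 0.31 (interval -0.16 to 0.78). E2F6, a repressor of the same family, had 8.44 and 8.09 on the treated arrays and 8.18 and 7.30 on the untreated arrays, a difference of 0.53 (interval -0.21 to 1.27), and untreated replicate 2 was its low array, below the negative-control percentile there. The difference of E2F6 was 0.087 without untreated replicate 2 and 0.97 without untreated replicate 1.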

How the data were processed

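Expression was measured on 4 arrays of SK-N-AS cells, 2 treated and 2 untreated. The authors deposited 1 log2 value per probe set and array. RMA and Transcriptome Analysis Console 4.0.1.36 appear in the submitters' processing notes. That they are log2 was inferred from their range. The arrays' median log2 values lay between 6.49 and 6.51.

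After 2903 control sets were left out, 21448 probe sets entered the test, dim ones included. The platform's annotation gives 1 symbol to 17709 of them, while 3739 carry no single name. RefSeq's gene table changed 0 of these symbols, and the brightest probe set stood for each gene. The build behind the probe sets is not given in the sources. A probe set is above the negative controls where its mean passes percentile 95 of the 612 negative-control sets, and each array's own percentile was used for single arrays.

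Groups were compared with limma 3.58.1 (lmFit, eBayes) under R 4.3.3, group as the only term, two-sided, with Benjamini-Hochberg adjustment over all probe sets at 0.05. Residual degrees of freedom numbered 2 and prior ones 4.90; simulated data with known changes were used to test the fit. The smallest two-sided p that exact permutation of these 4 arrays allows is 0.333. For E2F1, at background in untreated cells, the fold given sets the mean of the treated arrays against the higher of the dim value and the array's percentile. Roles and lists describe genes by counts and medians, with no set test. The genes with values on each array were named by a fixed rule, which takes 23 genes of main roles, the 8 largest differences, and from each further list the 5 genes above background with the smallest p. Other genes were given array values after these were seen. Members, lists and rule were chosen with earlier results of these data known. Alternatives were other normalizations, filters, variance settings, a replicate block and leaving out each array. Promoter sequences are from RefSeq on GRCh38.p14.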

Additional observations from a re-analysis of the deposited data

How the results depend on the processing

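No probe set and none of the 44 genes passed the adjusted threshold under the alternatives that keep all 4 arrays. These were 3 other normalizations, 2 filters on dim signals, keeping the control sets, and trended or robust variance. Array weights, a threshold of 0.10 and a replicate block were the others. The weights were equal within a group, 0.83 for the untreated and 1.21 for the treated arrays. They could therefore not set untreated replicate 2 apart. Averaging a gene's probe sets could change none of the 44, since each has 1 probe set. Over all probe sets the smallest limma adjusted p under these alternatives was 0.929, with the replicate block. With the replicate number as a block the counts stayed at 0, and 1079 probe sets had an unadjusted p below 0.05, against 1089. In this balanced layout the block leaves each difference as it was, so the median of 0.076 could not move. Over the 2 pairs, the deviations of same-numbered arrays correlated at 0.022, and the labels give these arrays only a number in common. The median over the 44 genes ranged from 0.060 to 0.11 with an array left out. It was 0.039 after quantile normalization and 0.041 after cyclic loess, which moved the median of all genes above the negative controls to 0.0014 and 0.0036. Genes with both treated arrays higher numbered 14 of the 44, and 20 to 27 with an array left out. Genes with both lower numbered 1, and 3 to 10 with an array left out. Leaving out an array relaxes this criterion by construction. Over all genes above the negative controls the share then was 35.7% to 47.4% higher and 21.4% to 32.1% lower, against 21.2% and 11.4% with all arrays. Both counts with an array left out were chosen after the data were seen. The sign of 25 of the 44 differences turned under at least 1 setting, and that of 19 under none of the 7 that move a difference. The turned values were as follows. Quantile normalization turned GINS3 (-0.012) and RRM2 (-0.012), cyclic loess GINS3 (-0.0099) and TYMS (-0.0075) and median centring TK1 (0.0011). With each array left out in turn, the differences that turned ranged as follows, with RPA2 from outside the 44: GINS1 -0.098 to 0.27, GINS4 -0.18 to 0.078, PRIM1 -0.21 to 0.045, POLE2 -0.36 to 0.14, PCNA -0.16 to 0.087, RFC3 -0.27 to 0.054, RFC4 -0.18 to 0.12, RRM2 -0.060 to 0.13, ORC6 -0.50 to 0.069, GMNN -0.076 to 0.20, MCM4 -0.23 to 0.44, GINS2 -0.31 to 0.21, CDC7 -0.29 to 0.38, TYMS -0.023 to 0.071, TK1 -0.26 to 0.26, CCNE2 -0.079 to 0.25, E2F2 -0.099 to 0.22, CHAF1A -0.017 to 0.43, RPA2 -0.014 to 0.90, POLA1 -0.11 to 0.25, RFC5 -0.14 to 0.042, FEN1 -0.045 to 0.20, DNMT1 -0.098 to 0.34, DBF4 -0.24 to 0.023 and LIG1 -0.84 to 0.43. The differences of the 19 genes that did not turn ranged, with an array left out, as follows: ORC1 0.014 to 0.28, CDC6 0.048 to 0.45, CDT1 0.25 to 0.49, MCM2 0.070 to 0.29, MCM3 0.13 to 0.45, MCM5 0.17 to 0.49, MCM6 0.26 to 0.46, MCM7 0.017 to 0.089, MCM10 -0.41 to -0.22, CDC45 0.15 to 0.23, POLA2 0.18 to 0.46, POLD1 0.35 to 0.86, POLE 0.44 to 0.54, RFC2 0.038 to 0.14, RRM1 0.075 to 0.22, CCNE1 0.18 to 0.37, E2F1 0.080 to 0.31, UHRF1 0.032 to 0.30 and CHAF1B -0.17 to -0.0025. With an array left out, the lone array of a group is assumed to vary as the other group does. The number of arrays limits the precision, and the 4 genes below the negative controls allow no statement on their transcripts.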
